A study of Mus musculus with 18 samples.

Results

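Ezh2, Ezh1, Eed, Suz12, Rbbp4, Rbbp7, Jarid2, Mtf2, Phf19 and Aebp2 encode the catalytic, core and accessory subunits of Polycomb repressive complex 2 (PRC2). They were chosen by name, as probesets annotated to 1 of these symbols and to no other gene. All 10 were measured among 18194 genes, through 35 probesets of which 31 passed the filter on low values, and the probeset with the highest mean over the arrays stands for each gene. Expression was measured on 18 Affymetrix arrays, 1 per mouse, in bone marrow cells of C57Bl6 mice. The groups were 4 wild-type (WT) mice, 4 mice overexpressing CCAT2-G, 4 overexpressing CCAT2-T and 6 labelled CCAT2-GT. CCAT2 is a human long non-coding RNA, and G and T name its 2 alleles. CCAT2-G and CCAT2-T mice together form the DRAI- group of 8 and the CCAT2-GT mice the DRAI+ group of 6, a status that the labels do not spell out. The transgene was expressed throughout the body, the labels name neither its promoter nor the founder lines, and ages are not given. The labels call the samples biological replicates.

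PRC2 places methyl groups on lysine 27 of histone H3, a mark of silenced genes, and it counteracts the activating methylation placed by Trithorax-type enzymes. EZH2 is the main catalytic subunit in dividing cells and EZH1 the one more prominent in resting cells; EED and SUZ12 are needed for activity, RBBP4 and RBBP7 bind histones, and the accessory subunits define 2 forms of the complex, with JARID2 and AEBP2 in one and MTF2, PHF19 or PHF1 in the other. In blood formation EZH2 is needed for early B-cell development, and loss of PRC2 function occurs in myeloid malignancies.

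The spread of values was narrower on 5 arrays, with interquartile ranges of 2.90 to 3.07 log2 units against 3.15 to 3.36 on the other 13. The 5 were replicates 1 and 2 of both WT and CCAT2-T together with the first CCAT2-G mouse; none was a CCAT2-GT array. Xist read 10.71 to 12.02 in 4 mice (replicates 2, 3 and 5 of CCAT2-GT, and replicate 3 of CCAT2-T) and 3.52 to 4.05 in the other 14. Eif2s3y read 2.14 to 2.32 in the same 4 mice and 6.96 to 7.93 in the other 14. The labels give no sex. The 4 were spread unevenly over the groups, with none in WT or CCAT2-G. WT replicate 4 and CCAT2-GT replicates 4 and 6 were highest for 13 marrow stroma genes, with mean log2 scores of 6.97, 6.97 and 7.58 against 4.44 to 6.66 elsewhere. Marrow identity was checked with 13 mature neutrophil genes, whose mean log2 score ran from 10.45 to 11.75 over the 18 mice, and with 20 erythroid genes, at 9.62 to 10.56.

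Promoter sequences of the mouse genes show where the members differ in motifs known from cell-cycle genes, and 3 are printed: Ezh2 and Suz12, whose levels varied together, and Ezh1, the paralog of Ezh2. They come from RefSeq (GRCm38.p6) and run from 250 bases before to 50 bases after an annotated start, 5′ to 3′ on the strand of the gene: chr6:47594981-47595280 (minus strand) for Ezh2, chr11:79992856-79993155 (plus strand) for Suz12 and chr11:101226414-101226713 (minus strand) for Ezh1. The annotated span of Ezh2 reaches base 47595270, so its window lies almost wholly inside the gene, around a start within it. Capitals mark the E2F-type motifs TTTGGCGC, TTTCCCGC, TTTCGCGC and TTTGCCGC and the motif CCAAT, searched on both strands; no marked motifs overlap.
Ezh2 promoter: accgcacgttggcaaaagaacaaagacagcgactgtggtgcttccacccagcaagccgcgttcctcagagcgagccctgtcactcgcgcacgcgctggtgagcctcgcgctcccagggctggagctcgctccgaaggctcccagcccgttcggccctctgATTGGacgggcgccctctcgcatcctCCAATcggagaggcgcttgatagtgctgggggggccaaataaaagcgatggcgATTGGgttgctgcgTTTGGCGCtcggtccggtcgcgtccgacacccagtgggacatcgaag
Suz12 promoter: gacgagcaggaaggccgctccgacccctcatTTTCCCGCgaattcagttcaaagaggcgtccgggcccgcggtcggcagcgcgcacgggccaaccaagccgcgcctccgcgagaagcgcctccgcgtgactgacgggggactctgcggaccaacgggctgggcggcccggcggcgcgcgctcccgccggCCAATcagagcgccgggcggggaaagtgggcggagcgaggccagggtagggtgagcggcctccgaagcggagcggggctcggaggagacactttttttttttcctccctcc
Ezh1 promoter: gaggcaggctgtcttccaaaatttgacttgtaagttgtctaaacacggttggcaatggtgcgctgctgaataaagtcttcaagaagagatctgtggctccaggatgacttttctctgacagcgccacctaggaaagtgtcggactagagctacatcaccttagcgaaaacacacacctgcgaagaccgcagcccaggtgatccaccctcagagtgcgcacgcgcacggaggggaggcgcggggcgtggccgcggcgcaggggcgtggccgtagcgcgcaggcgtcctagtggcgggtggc
The Ezh2 window held 1 E2F-type match, TTTGGCGC, from base 254 of the window, and 3 of CCAAT; Suz12 held TTTCCCGC from base 32 and 1 CCAAT; the Ezh1 window held neither. Phf19 was the third of the 10 genes with an E2F-type match. These matches fell in 3 of the 14 member windows, against 2.26% of all 32851 windows of that length. CCAAT was present in 9 of the 14, for 8 genes, against 37.4% of all windows. A match is a description of the letters only.

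No PRC2 gene passed the test in any of the 4 comparisons made, and neither did any other gene: limma with Benjamini-Hochberg adjustment over 14505 genes called 0 genes (0%) in each at an adjusted p under 0.05. At an unadjusted p under 0.05 the DRAI+ against WT comparison held 382 genes (2.63%) and none of the 10 members. In DRAI- against WT there were 197 genes (1.36%), again with 0 members, and in DRAI+ against DRAI- 1388 genes (9.57%), also with 0 members. Between CCAT2-G and CCAT2-T 912 genes (6.29%) reached that level, Mtf2 and Eed among them, or 2 of the 10 members. Groups failed to overlap for 109 genes (0.751%), 9 (0.062%), 14 (0.0965%) and 332 (2.29%) in the same order, and for 0, 0, 0 and 1 members. The smallest limma adjusted p of any gene was 1.00, 0.999, 0.456 and 0.0579 in that order. Relative to WT, 2 members were higher and 8 lower in DRAI+ mice, with a median difference of -0.03 log2 units against -0.0017 over all genes tested. In DRAI- mice 3 were higher than in WT and 7 lower (median -0.02). These comparisons share the 4 WT mice. With array weights 456 genes passed in DRAI+ against WT, none of them a member, and without CCAT2-G replicate 3 there were 7 in DRAI+ against DRAI-, again with 0 members.

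**Figure D1:**
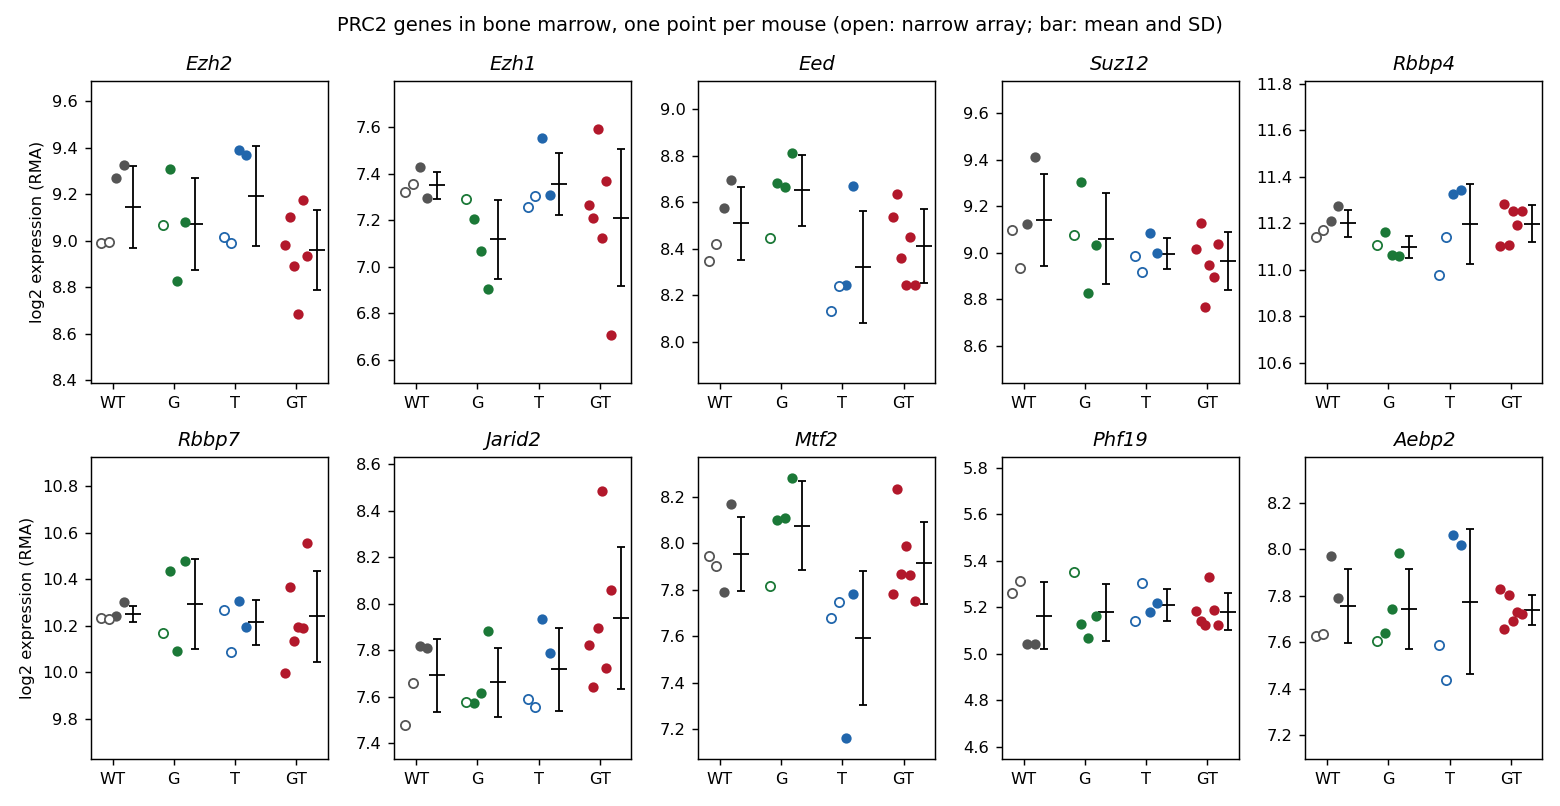
Log2 expression of the 10 PRC2 genes, 1 point per mouse, in WT, CCAT2-G (G), CCAT2-T (T) and CCAT2-GT (GT) marrow; each panel spans 1.3 log2 units, open points are the 5 narrow arrays, and the bars give the mean and SD. Groups overlap except in Mtf2, where the lowest G (7.82) and WT (7.79) mice lie above the highest T mouse (7.78), and in Ezh1, where the lowest WT mouse (7.30) lies just above the highest G mouse (7.29).

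**Figure D2:**
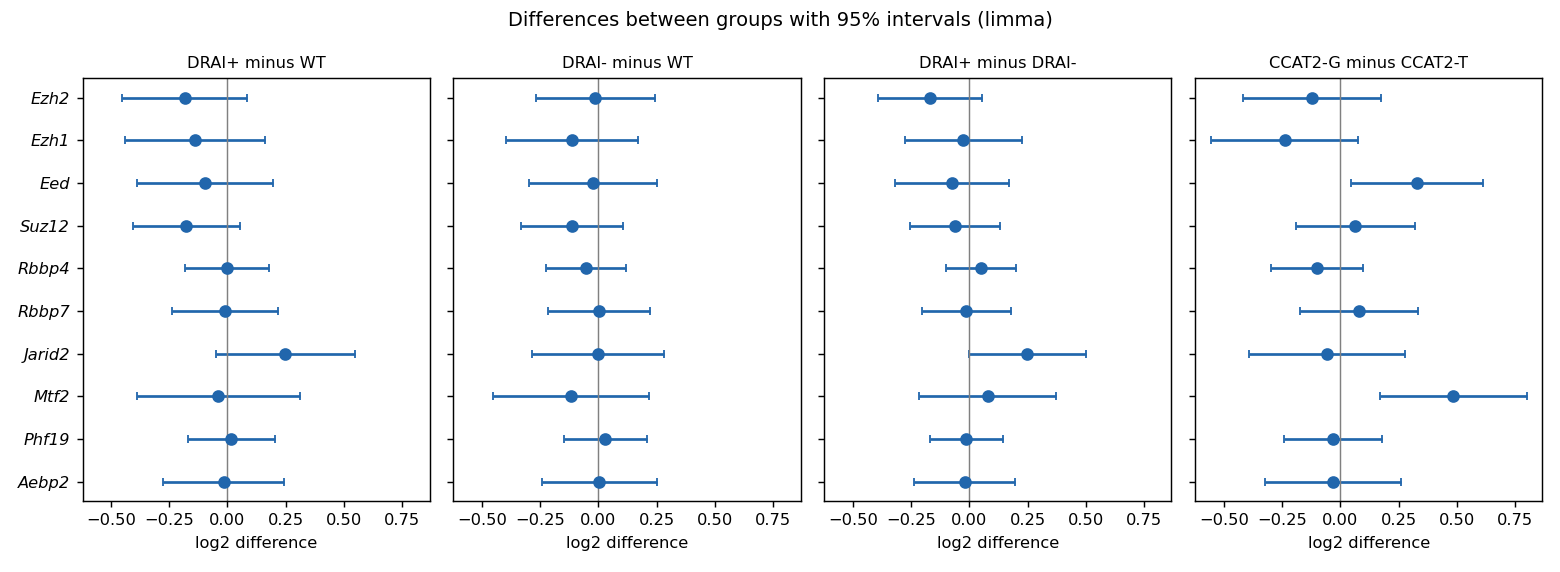
Log2 differences between groups (x axis) for each PRC2 gene with 95% confidence intervals from limma, in 4 comparisons. All intervals include 0 except those of Mtf2 (0.17 to 0.80) and Eed (0.05 to 0.61) for CCAT2-G minus CCAT2-T.

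Ezh2, the catalytic subunit (chr6:47530274-47595270, minus strand, GRCm38.p6), had 1 probeset. WT mice read 8.99, 8.99, 9.27 and 9.32 log2 units, CCAT2-G mice 9.07, 9.31, 8.83 and 9.08, and CCAT2-T mice 9.02, 8.99, 9.39 and 9.37. The 6 CCAT2-GT mice ran from 8.68 to 9.17 with a median of 8.96. Group means fell in the order CCAT2-T (9.19 ± 0.22 SD, n = 4), WT (9.14 ± 0.18, n = 4), CCAT2-G (9.07 ± 0.20, n = 4) and CCAT2-GT (8.96 ± 0.17, n = 6), and neighbours in that order overlapped. The difference between DRAI+ and WT was -0.18 (SE 0.13, 95% interval -0.45 to 0.08), a ratio of 0.881 with an interval of 0.732 to 1.06, and a single DRAI+ mouse of the 6 exceeded the average of WT. Against DRAI- the difference was -0.17 (SE 0.11, interval -0.39 to 0.05; limma with Benjamini-Hochberg adjustment, adjusted p = 0.577). DRAI- minus WT was -0.01 (interval -0.27 to 0.24). In bulk marrow fewer cells of a type and less RNA per cell cannot be told apart.

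The Ezh2 difference moved with which arrays were kept. The 5 narrow arrays lay at 8.99 to 9.07. The other WT mice read 9.27 and 9.32 and the other CCAT2-T mice 9.37 and 9.39, all 4 above the highest CCAT2-GT mouse. The other CCAT2-G mice, at 9.31, 8.83 and 9.08, lay on both sides of that mouse. Without the narrow arrays DRAI+ minus WT was -0.34 (adjusted p = 0.751). Leaving out the 3 stroma-rich mice instead gave -0.05, and array weights gave -0.02. Against WT, 28 of 34 cell-cycle genes (median -0.09) and 16 of 16 B-cell precursor genes (median -1.08) were lower in DRAI+ mice. Beside Ezh2, genes of B-cell precursors were lower in DRAI+ than in DRAI- mice in 16 of 16 (median -1.33; mean score 5.42 to 7.46 against 5.51 to 8.49), and 13 had an unadjusted p under 0.05. Of the 34 cell-cycle genes, 26 were higher than in DRAI- mice (median 0.08; score 8.96 to 9.56 against 9.01 to 9.51). Their part in the Ezh2 values was not tested.

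Ezh1 (chromosome 11) did not follow the same order. Its means were 7.36 ± 0.13 (SD, n = 4) in CCAT2-T, 7.35 ± 0.06 (n = 4) in WT, 7.21 ± 0.30 (n = 6) in CCAT2-GT and 7.12 ± 0.17 (n = 4) in CCAT2-G. WT mice were close together, at 7.30 to 7.43, while CCAT2-GT mice spread from 6.71 to 7.59. Against WT the DRAI+ difference was -0.14 (SE 0.14, interval -0.44 to 0.16) and DRAI+ minus DRAI- -0.03 (interval -0.28 to 0.22). The difference from WT was -0.04 without CCAT2-GT replicate 6, the lowest mouse, -0.0092 without the stroma-rich mice and -0.32 without the Xist-high mice. CCAT2-G lay below CCAT2-T by -0.24 (SE 0.15, interval -0.55 to 0.08; limma adjusted p = 0.793), and no CCAT2-G mouse exceeded the CCAT2-T mean. The second Ezh1 probeset ran the other way, at 0.11 above WT and 0.30 above DRAI- (unadjusted p = 0.0177, adjusted p = 0.471 over 26001 probesets).

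Eed, a core subunit, reads the methyl mark through its WD repeats, and its 1 probeset past the filter differed between the alleles at an unadjusted p under 0.05. CCAT2-G mice read 8.44, 8.68, 8.67 and 8.81, and CCAT2-T mice 8.13, 8.24, 8.24 and 8.67; WT mice lay at 8.35 to 8.70 and CCAT2-GT mice at 8.24 to 8.64. All 4 CCAT2-G mice were above the CCAT2-T mean, but the groups overlapped through CCAT2-T replicate 4. The difference was 0.33 (SE 0.14, interval 0.05 to 0.61; unadjusted p = 0.0254, limma adjusted p = 0.757). DRAI+ minus WT was -0.10 (interval -0.39 to 0.19) and turned to 0.05 without the stroma-rich mice.

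Suz12, the scaffold of the complex, read 9.10, 8.93, 9.12 and 9.41 in WT mice and 8.77 to 9.13 (median 8.98) in CCAT2-GT mice. CCAT2-G mice lay at 8.83 to 9.30 and CCAT2-T mice at 8.92 to 9.09. The order of means was WT (9.14), CCAT2-G (9.06), CCAT2-T (9.00) and CCAT2-GT (8.97), each overlapping the next. None of the 6 DRAI+ mice exceeded the WT mean, and the difference was -0.18 (SE 0.11, interval -0.41 to 0.05; unadjusted p = 0.125). All 6 Suz12 probesets were lower in DRAI+ than in WT, by -0.34 to -0.01. Against DRAI- mice 3 of the 6 were lower, the lowest at -0.36 (unadjusted p = 0.00486, adjusted p = 0.439). Without the stroma-rich mice the gene's difference from WT was -0.10, and without WT replicate 4 alone it was -0.09. Between the alleles the brightest probeset differed by 0.06 (SE 0.12), but 2 others were higher in CCAT2-G, by 0.42 (unadjusted p = 0.0328) and 0.41 (unadjusted p = 0.0219; limma adjusted p = 0.658 or more for both).

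Rbbp4 and Rbbp7 are closely related histone chaperones shared with other chromatin complexes. Their brightest probesets carry the suffix that marks probes matching related sequences, so signal from related sequences cannot be told apart here. Rbbp4 varied little: WT, CCAT2-T and CCAT2-GT means were each 11.20, and CCAT2-G was 11.10 ± 0.05 (SD, n = 4). The DRAI+ difference from WT was -0.0017 (interval -0.18 to 0.18). Rbbp7 means lay between 10.21 and 10.29, with WT mice at 10.23 to 10.30 and CCAT2-GT mice from 10.00 to 10.56. DRAI+ minus WT was -0.01 (interval -0.24 to 0.22) and DRAI+ minus DRAI- was -0.01 (interval -0.21 to 0.18). Rbbp7 is X-linked, and the 4 Xist-high mice read 10.13 to 10.37, inside the range of the other 14.

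Jarid2, which helps recruit PRC2 to chromatin, was the member with the largest positive difference in DRAI+ mice. WT mice read 7.48, 7.66, 7.82 and 7.81, CCAT2-G mice 7.58, 7.57, 7.62 and 7.88, and CCAT2-T mice 7.59, 7.56, 7.94 and 7.79. CCAT2-GT mice ran from 7.64 to 8.49 with a median of 7.86, so the groups overlapped, but 5 of 6 lay above the WT mean and 5 of 6 above the DRAI- mean. The difference from WT was 0.25 (SE 0.14, interval -0.05 to 0.55; unadjusted p = 0.0993). From DRAI- it was 0.25 (SE 0.12; unadjusted p = 0.0508, limma adjusted p = 0.522), a ratio of 1.19 with an interval of 0.999 to 1.41. All 3 Jarid2 probesets were higher in DRAI+ than in both other groups.

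The highest Jarid2 values came from CCAT2-GT replicates 4 (8.49) and 6 (8.06). These mice also had the highest mean score of 11 megakaryocyte genes, 10.72 and 10.34 against 6.24 to 9.08 in the other 16. Without CCAT2-GT replicate 4 alone both differences were 0.14. Without the 3 stroma-rich mice, which include both, DRAI+ minus WT was 0.12 and DRAI+ minus DRAI- 0.08. Without the 4 Xist-high mice the differences were 0.43 and 0.47 (adjusted p = 0.436 for the latter). On the 5 narrow arrays, none of them CCAT2-GT, Jarid2 read 7.48 to 7.66, against 7.57 to 8.49 on the other 13. The WT mice among those 13 read 7.81 and 7.82. The part of megakaryocytes, stroma or array spread in these values was not tested.

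Aebp2, the other accessory subunit of that form, had means of 7.74 to 7.78 in all 4 groups, and DRAI+ minus WT was -0.02 (interval -0.28 to 0.24). Its brightest probeset was low on the narrow arrays. The 5 narrow arrays read 7.44 to 7.64 and the other 13 read 7.64 to 8.06, without overlap before rounding. The second brightest Aebp2 probeset overlapped, at 6.12 to 6.23 on the narrow arrays and 5.71 to 6.22 on the others. B-cell precursor scores were 8.17 to 8.49 on the narrow arrays and 5.42 to 8.43 on the others. The part of array spread or of cell make-up in the Aebp2 values was not tested. With narrow arrays as a block, DRAI+ minus WT was -0.17 (adjusted p = 0.633).

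Mtf2, a Polycomb-like protein that binds CpG-rich DNA, was the only member with groups that did not overlap, in 1 of the 4 comparisons. CCAT2-G mice read 7.82, 8.10, 8.11 and 8.28 and CCAT2-T mice 7.68, 7.75, 7.16 and 7.78. WT mice, at 7.79 to 8.17, and CCAT2-GT mice, at 7.75 to 8.23, had means between them; WT mice overlapped CCAT2-G only, and CCAT2-GT mice overlapped both. The difference was 0.48 (SE 0.15, interval 0.17 to 0.80), a ratio of 1.40 with an interval of 1.12 to 1.74 (unadjusted p = 0.00468, limma adjusted p = 0.743). CCAT2-T replicate 3, a Xist-high mouse, held the lowest value. Without it the difference was 0.34 (limma adjusted p = 0.947). Leaving out the narrow arrays gave 0.69, but only 2 CCAT2-T mice then remained, and replicate 3 was 1 of them.

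Of the 5 Mtf2 probesets past the filter, 4 were higher in CCAT2-G and 1 lower (-0.16 to 0.48). Genes of other cells differed alongside: 11 of 11 megakaryocyte genes (median 1.01) and 13 of 13 stroma genes (median 0.66) were higher in CCAT2-G, and 9 of 9 skeletal muscle genes were lower (median -0.44). Megakaryocyte scores ran from 7.51 to 8.84 in CCAT2-G and from 6.24 to 7.38 in CCAT2-T mice. Stroma scores in the same order ran from 5.45 to 6.66 and 4.57 to 6.08. Muscle scores ran from 4.46 to 4.58 and 4.48 to 6.52. The muscle score of 6.52 was that of CCAT2-T replicate 1 alone, with the other CCAT2-T mice at 4.70, 4.51 and 4.48. The part of these cells in the Mtf2 and Eed values was not tested. Against WT, Mtf2 was -0.04 in DRAI+ (interval -0.39 to 0.31) and -0.12 in DRAI- mice (interval -0.45 to 0.22). Phf19, another Polycomb-like protein, had means of 5.16 to 5.21 in the 4 groups. Its DRAI+ difference from WT was 0.02 (interval -0.17 to 0.20).

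**Figure D3:**
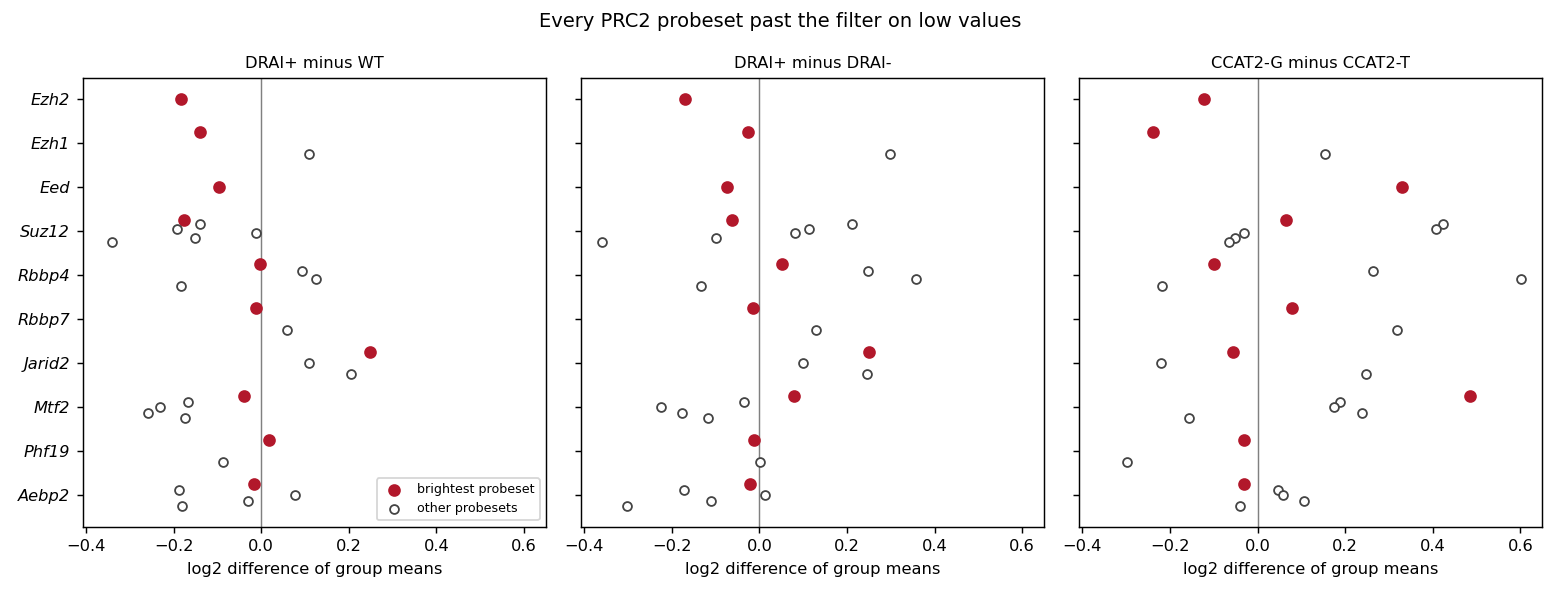
Log2 difference of group means (x axis) for each of the 31 PRC2 probesets past the filter, by gene (y axis); filled points are the brightest probesets and open points the others. In DRAI+ minus WT, Suz12 and Mtf2 probesets all lie below 0 and the 3 of Jarid2 above it, while Ezh1 and Rbbp4 probesets lie on both sides.

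Probesets of one gene did not always move together. Over the 31, 9 were higher and 22 lower in DRAI+ than in WT, 1 with an unadjusted p under 0.05 (2.43% of 26001 probesets). For DRAI+ against DRAI- the split was 14 and 17, with 4 at that level (9.91%), and for CCAT2-G against CCAT2-T 17 and 14, with 7 (7.02%). None passed adjustment by limma. The other probesets of Jarid2 correlated with its brightest at 0.83 and 0.71 over the 18 mice. Those of Rbbp4 did so at 0.27, -0.10 and 0.53, and 1 Rbbp4 probeset was 0.60 higher in CCAT2-G than in CCAT2-T while the brightest was -0.10.

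**Figure D4:**
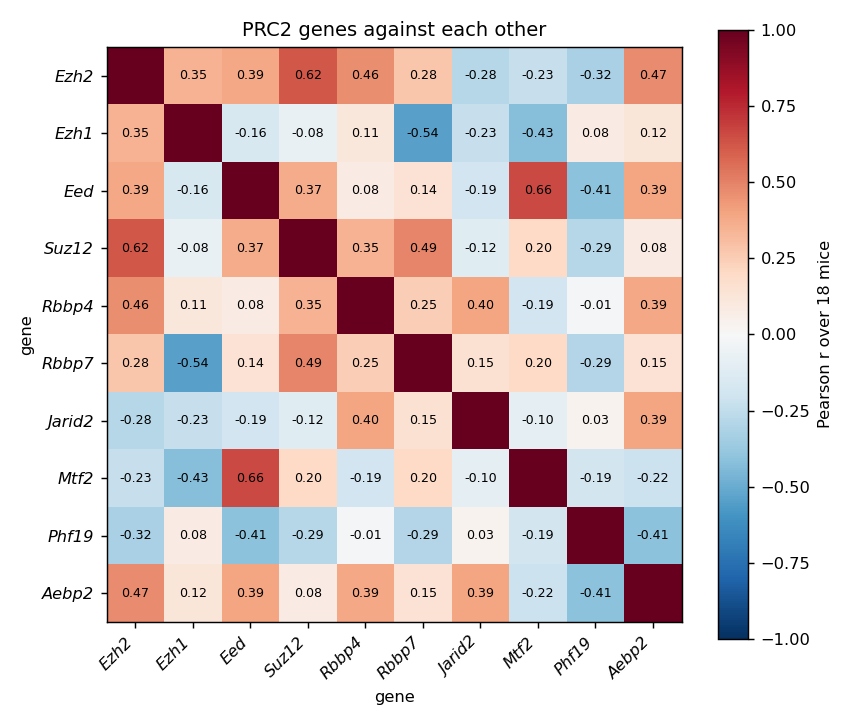
Pearson r between PRC2 genes over 18 mice, brightest probeset of each; the colour scale runs from -1 to 1. Eed with Mtf2 (0.66) and Ezh2 with Suz12 (0.62) are the pairs above 0.5, and Ezh1 with Rbbp7 (-0.54) is the lowest.

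The subunits did not vary as one block across mice. Of 45 pairs, 26 had a correlation above 0 and the median was 0.08, given as a description since all points share arrays. Ezh2 and Suz12 correlated at 0.62 over 18 mice (0.65 for deviations from group means, 0.63 on the 13 wider arrays). Eed and Mtf2 correlated at 0.66, and at 0.52 for deviations from group means. Ezh1 was lowest with Rbbp7 (-0.54).

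Among all genes tested, those most like Ezh2 over the 18 mice were Epc1 (Pearson r 0.86), Atad2 (0.86), Usp37 (0.85), Psip1 (0.82) and BC052040 (0.82). For the other members the most alike gene was Ip6k1 for Ezh1 (0.82), Ttc32 for Eed (0.89), Rad51ap1 for Suz12 (0.86), Anapc5 for Rbbp4 (0.89) and Cct4 for Rbbp7 (0.89). For the accessory subunits it was Fhod1 for Jarid2 (0.91), Umps for Mtf2 (0.91), Ssc5d for Phf19 (0.81) and Tob2 for Aebp2 (0.90).

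Each member was set against 4 marker scores (cell cycle, B-cell precursors, erythroid, mature neutrophils), 40 relations in all, with permutation tests of 100000 resamples, two-sided and adjusted by Benjamini and Hochberg's method over the 40. By Pearson r 1 relation passed, that of Rbbp7 with the mature neutrophil score (r -0.82, permutation p = 3e-05, adjusted p = 0.0012). By Spearman rho none passed at the adjusted level (rho -0.65 for Rbbp7, permutation p = 0.00441, adjusted p = 0.0882). For deviations from group means r was -0.82 and on the 13 wider arrays -0.89. Without the 2 mice farthest from the median score it was -0.73 (adjusted p = 0.0382), and leaving out each mouse gave -0.85 to -0.78. Of all genes tested, 1.52% had an r with this score at least as large in size. The other Rbbp7 probeset correlated at -0.42.

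Several members had positive correlations with the cell-cycle score over the 18 mice, and none passed adjustment. Phf19 ran the other way (r -0.47, rho -0.43, permutation, adjusted p = 0.190), a size reached by 33.7% of genes. Ezh1 was also negative (r -0.14, rho -0.16). Suz12 had r 0.67 (permutation, adjusted p = 0.0512) and rho 0.55, Rbbp4 0.61 and 0.67, Eed 0.52 and 0.50, and Ezh2 0.47 and 0.42 (adjusted p = 0.190). Without the 2 mice farthest from the median the r of Suz12 was 0.46. For deviations from group means, Suz12 (0.69, adjusted p = 0.0230 by permutation) and Rbbp4 (0.67, adjusted p = 0.0291) passed beside Rbbp7. The permutations shuffled the deviations freely and made no allowance for the group means removed. Those p-values therefore run too small and do not settle whether Suz12 or Rbbp4 passes. Of all genes tested, 8.07% had an r with the cell-cycle score at least as large in size as that of Suz12, 13.8% for Rbbp4, 25.8% for Eed and 34.2% for Ezh2. Jarid2 against the erythroid score had r -0.58 (rho -0.58, permutation, adjusted p = 0.0858 for r), a size reached by 4.44% of genes; it was -0.62 for deviations from group means and -0.36 without the 2 farthest mice. With the B-cell precursor score Jarid2 had r -0.40 (rho -0.46), a size reached by 50.2% of genes, and -0.72 (adjusted p = 0.0382 by permutation) without the 2 farthest mice.

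**Figure D5:**
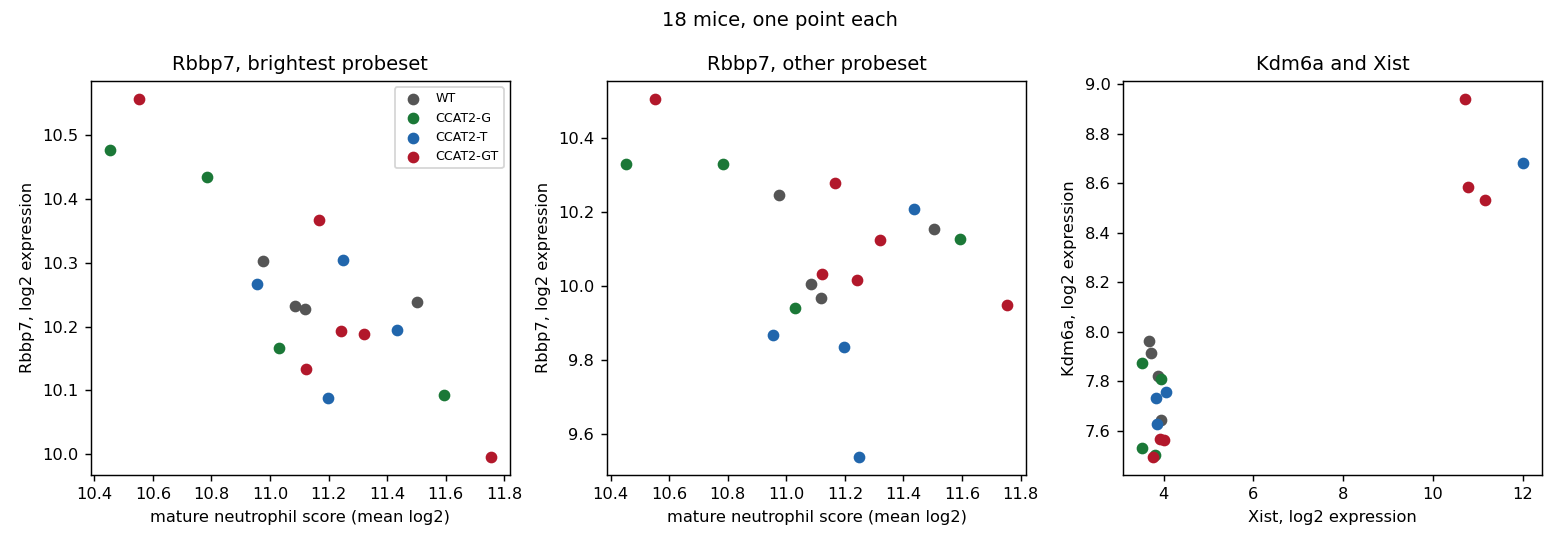
Log2 expression of the 2 Rbbp7 probesets against the mature neutrophil score (mean log2 of 13 genes) and of Kdm6a against Xist, 1 point per mouse, coloured by group. The brightest Rbbp7 probeset is lower at higher scores (r -0.82) and the other less closely (r -0.42); Kdm6a is 8.53 to 8.94 in the 4 Xist-high mice and 7.49 to 7.96 in the other 14.

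Other Polycomb and Trithorax genes were counted from lists of their own, and limma called none of them. Of 18 genes of PRC1, the complex that places ubiquitin on histone H2A, 13 were lower in DRAI+ than in WT (median -0.10) and 11 lower than in DRAI- (median -0.07; all genes -0.01). Cbx7, a reader of the PRC2 mark, was 4.72 in DRAI+ mice against 5.18 in WT and 5.14 in DRAI- mice, differences of -0.46 (SE 0.17; unadjusted p = 0.0132) and -0.42 (SE 0.14; unadjusted p = 0.0077, limma adjusted p = 0.456). No DRAI+ mouse exceeded either mean. Rnf2, the ubiquitin ligase of PRC1, was -0.19 (SE 0.10) against WT, and its DRAI+ and WT mice did not overlap. Of all genes tested, 0.751% did not overlap in that comparison.

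Of 11 Trithorax-type methyltransferases and their relatives, 10 were lower in DRAI+ mice than in WT (median -0.12) and 10 lower than in DRAI- (median -0.18). Kmt2e was -0.27 (SE 0.12) against WT and -0.28 (SE 0.10; unadjusted p = 0.0136, limma adjusted p = 0.486) against DRAI-. Of 9 genes of PR-DUB, which removes the PRC1 mark, 5 were lower than in WT (median -0.03). Kdm1b, on the same list, was -0.37 (SE 0.19). Lcor, an accessory PRC2 partner outside the 10, was -0.26 (SE 0.12) against WT without overlap, where 0.751% of all genes tested did not overlap. Between the alleles, all 11 Trithorax-type genes were lower in CCAT2-G (median -0.19), and Lcor was -0.36 (SE 0.11; unadjusted p = 0.00441, limma adjusted p = 0.743), again without overlap. There 2.29% of all genes tested did not overlap.

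Of 14 known PRC2 target genes past the filter, 9 were higher in DRAI+ than in WT (median 0.03) and 3 higher than in DRAI- (median -0.04). Meis1, a homeobox gene of stem cells, was 4.73 in DRAI+ mice against 4.12 in WT (difference 0.61, SE 0.30) and 4.23 in DRAI-. Mecom, a stem-cell transcription factor, read 4.41 in DRAI+, 4.38 in WT and 4.10 in DRAI- mice. It was 0.31 higher in DRAI+ than in DRAI- mice (SE 0.12; unadjusted p = 0.0225, limma adjusted p = 0.486) and 0.03 higher than in WT (SE 0.15), while DRAI- minus WT was -0.27 (SE 0.14), with none of the 8 DRAI- mice above the WT mean. Megakaryocyte genes were higher in DRAI+ than in DRAI- mice in 11 of 11 (median 0.87; scores 6.43 to 10.72 against 6.24 to 8.84), and their part in the Meis1 and Mecom values was not tested.

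Kdm6a, which removes the PRC2 mark and is X-linked, followed Xist. It read 8.53 to 8.94 in the 4 Xist-high mice and 7.49 to 7.96 in the other 14, without overlap. Relative to WT the DRAI+ difference was 0.28 (SE 0.27, interval -0.29 to 0.84) and DRAI+ minus DRAI- 0.30 (SE 0.23). Without the Xist-high mice both turned, to -0.30 (SE 0.13) and -0.15 (SE 0.11), with limma adjusted p-values of 1.00 and 0.679. Kdm6b, its autosomal relative, was -0.11 against WT (interval -0.66 to 0.43).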

How the data were processed

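Total RNA of flash-frozen bone marrow cells was extracted with Trizol, labelled with biotin and hybridised to arrays, per the labels' protocols. The authors deposited log2 expression values of 45101 probesets on 18 arrays, normalized with RMA per the submitters' processing notes; for the version and the probe definition the sources used here give nothing. The range over all arrays, 1.56 to 14.2, sets the scale as log2.

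Probesets with 1 gene symbol in the platform annotation (34958) were used. The brightest stood for a gene. A filter at a mean of 3.30, the 30th percentile over probesets, kept 14505 genes. Linear models of 3 groups or, for the alleles, of 4 were run in limma 3.58.1 (R 4.3.3) over the 18 arrays with a trended prior variance, and Benjamini-Hochberg adjusted p-values over those genes were judged at 0.05. Intervals are 95% and errors SE of the fit or SD between mice. Correlations used Python 3.11.15 with numpy 2.4.6. The procedures were tested on simulated data. The number of arrays limits the precision.

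All 10 members are named whatever their values, with up to 2 genes of smallest p per Polycomb list and comparison (fewer are printed for some), the 5 genes most like Ezh2 and 1 for each other member. Members and lists were chosen with earlier results of these data known. All 10 members matched a RefSeq promoter, 14 windows in all. Protein sequences were not used here. Alternatives were other normalizations, filters, probeset rules, variance models, weights, blocks, and fits without arrays that stood apart; the settings for Kdm6a, Mtf2, Eed and single mice or probesets of Rbbp7 were chosen after seeing the data.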

Additional observations from a re-analysis of the deposited data

Results flagged for a closer look

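There were 50 groups of member values (10 genes in the 4 groups and in the DRAI- mice together). Of these, 5 held a mouse set apart by its gap relative to the group's range, and chance gives about 1 in 20. The DRAI- groups reuse the CCAT2-G and CCAT2-T values, so the 50 are not independent. Ezh1 was high in CCAT2-T replicate 3, at 7.56, and Mtf2 was low in the same mouse, at 7.16. Rbbp7 was high in WT replicate 4, at 10.30, where the other WT mice lay within 10.23 to 10.24. Jarid2 was high in CCAT2-G replicate 4, at 7.88, and Phf19 in CCAT2-GT replicate 4, at 5.33.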

How the results depend on the processing

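Among WT, DRAI- and DRAI+ mice, no member passed the limma threshold in 14 alternative settings or 18 fits without 1 mouse. The smallest adjusted p of a member there was 0.172. Between the alleles, the settings added for Mtf2 and Eed had a smallest limma adjusted p of 0.222 (Mtf2 without CCAT2-G replicate 1). Of 30 member differences between WT, DRAI- and DRAI+ mice, 10 kept their direction throughout and 20 turned in some setting, the largest of these 0.11 in size in the fit as reported. The cause of the turns was not tested. Array weights turned Eed to 0.0018, Rbbp4 to 0.014, Phf19 to -0.085 and Aebp2 to 0.080 in DRAI+ minus WT, and Ezh2 to 0.11, Eed to 0.052, Suz12 to 0.026, Jarid2 to 0.040 and Phf19 to -0.051 in DRAI- minus WT, and Ezh1 to 0.065 and Aebp2 to 0.033 in DRAI+ minus DRAI-. Centring the arrays on their medians turned Rbbp4 to 0.00031 in DRAI+ minus WT, and Rbbp7 to -0.015 and Aebp2 to -0.014 in DRAI- minus WT, and Rbbp7 to 0.0061 and Phf19 to 0.0067 in DRAI+ minus DRAI-. The mean of a gene's probesets turned Eed to 0.026, Rbbp4 to 0.0086, Rbbp7 to 0.023 and Phf19 to -0.036 in DRAI+ minus WT, and Eed to 0.0045, Rbbp7 to -0.034 and Phf19 to -0.030 in DRAI- minus WT, and Ezh1 to 0.047, Eed to 0.021, Rbbp7 to 0.057 and Mtf2 to -0.096 in DRAI+ minus DRAI-. Narrow arrays as a block turned Rbbp7 to -0.0094 and Aebp2 to -0.035 in DRAI- minus WT, and Phf19 to 0.047 in DRAI+ minus DRAI-. A further quantile normalization turned Ezh2 to 0.031, Eed to 0.026 and Jarid2 to 0.045 in DRAI- minus WT, and Rbbp4 to -0.0033 in DRAI+ minus DRAI-. A replicate block turned Mtf2 to 0.014 in DRAI+ minus WT, and Ezh1 to 0.061 in DRAI+ minus DRAI-. Leaving out the 3 stroma-rich arrays turned Eed to 0.050, Mtf2 to 0.056, Phf19 to -0.047 and Aebp2 to 0.0091 in DRAI+ minus WT, and Ezh2 to 0.047, Eed to 0.039, Jarid2 to 0.038 and Phf19 to -0.010 in DRAI- minus WT, and Ezh1 to 0.12 and Eed to 0.010 in DRAI+ minus DRAI-. Leaving out the 4 Xist-high arrays turned Rbbp4 to 0.0027 in DRAI+ minus WT, and Eed to 0.012, Rbbp7 to -0.0046 and Aebp2 to -0.039 in DRAI- minus WT, and Rbbp7 to 0.0026, Mtf2 to -0.090, Phf19 to 0.016 and Aebp2 to 0.032 in DRAI+ minus DRAI-. Leaving out the narrow arrays turned Ezh1 to 0.0030 and Phf19 to 0.030 in DRAI+ minus DRAI-. Leaving out 1 mouse each gave ranges that crossed 0 for Rbbp4 -0.021 to 0.023, Rbbp7 -0.075 to 0.037, Mtf2 -0.10 to 0.034, Phf19 -0.024 to 0.066 and Aebp2 -0.060 to 0.054 in DRAI+ minus WT; Ezh2 -0.065 to 0.047, Eed -0.078 to 0.039, Rbbp7 -0.029 to 0.026, Jarid2 -0.072 to 0.041, Phf19 -0.011 to 0.080 and Aebp2 -0.039 to 0.075 in DRAI- minus WT; Ezh1 -0.10 to 0.075, Rbbp7 -0.078 to 0.035, Mtf2 -0.016 to 0.14, Phf19 -0.044 to 0.0093 and Aebp2 -0.067 to 0.022 in DRAI+ minus DRAI-. Without crossing 0, DRAI+ minus WT ranged over these fits from -0.22 to -0.04 for Ezh1, from -0.23 to -0.12 for Ezh2, from -0.25 to -0.09 for Suz12 and from 0.14 to 0.31 for Jarid2.

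Genes called in DRAI+ against WT were 0 in the reported fit and 456 with array weights (137 higher, 319 lower, 0 members). In DRAI+ against DRAI-, leaving out 1 mouse gave 0 to 7, the 7 without CCAT2-G replicate 3. Between the alleles 1 gene passed with a further quantile normalization and 1 with the filter at the 50th percentile, and leaving out 1 mouse gave 0 to 1 (the 1 without CCAT2-GT replicate 3 or CCAT2-T replicate 1). Member relations with marker scores that passed were 1 as reported, 3 for deviations from group means and 2 without the 2 farthest mice. The p-values for deviations make no allowance for the group means removed and run too small, so the count of 3 is not settled.

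Same-numbered mice of different groups had correlations of deviations from -0.35 to 0.67 over 20 pairs, 8 above 0.1. Pairs of different numbers ran from -0.62 to 0.62 over 84 pairs, 30 above 0.1. Between CCAT2-G and CCAT2-T the 4 same-numbered pairs ran from 0.02 to 0.44, 3 above 0.1. The 12 pairs of different numbers there ran from -0.57 to 0.53, 3 above 0.1. Same-numbered WT and CCAT2-G mice, in order of number, had 0.67, -0.13, 0.39 and 0.15. For WT with CCAT2-T the values were 0.55, 0.44, 0.56 and -0.03. Differently numbered mice of these groups reached 0.60 (WT replicate 3 with CCAT2-T replicate 4). Same-numbered pairs with a CCAT2-GT mouse ran from -0.35 to 0.45. Not every pair passed 0.1, so the numbers were not taken to pair the mice. Whether they mark array structure shared by WT, CCAT2-G and CCAT2-T mice was not tested. With the replicate block the genes called were 0 in each of the 4 comparisons, and Ezh2 in DRAI+ minus WT was -0.23.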
